A study of Mus musculus with 2 samples.

Results

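The MHC class II presentation genes were followed in tumours raised by long-term ultraviolet B (UVB) light on the skin of P2ry6-/- and wild-type mice. The 10 genes were taken by name from the array: H2-Aa, H2-Ab1, H2-Eb1, H2-DMa, H2-DMb1, H2-Oa, Cd74, Ciita, Ctss and Ifi30. They account for 10 of the 37321 gene names on the array and for 17 of its 56605 probes. The samples were 1 tumour RNA from male P2ry6-/- mice (KO-labelled) and 1 from male P2ry6+/+ mice (WT-labelled), each hybridised to 1 single-colour Agilent array. P2ry6 encodes a G protein-coupled receptor for the nucleotide UDP. Both groups had the same irradiation, begun at 2 months of age with 180 mJ/cm2 for 10 weeks, then increased weekly in steps of 10 mJ/cm2 to 300 mJ/cm2 at week 22 and held there until week 40. The deleted part of P2ry6, the strain background and the number of mice or tumours behind each RNA are not given in the sources used here. With 1 array per genotype there was no replicate, so no test was run and genes are described by size alone.

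P2ry6 was checked first, and it read higher where its loss is labelled. Its 2 probes read 318 and 835 signal units on the KO-labelled array, against 137 and 364 on the WT-labelled array, a log2 difference of 1.29 ± 0.01 (SD, n = 2 probes). The deleted part is not given, so whether these probes lie inside it is unknown and they cannot check the labels. Every direction below rests on the labels and would reverse if these were exchanged. The arrays were alike in brightness, with 57.9% of non-control spots well above background on the KO-labelled array and 57.8% on the WT-labelled array, and no spot was saturated.

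Class II molecules carry peptides from endosomes to the surface of dendritic cells, macrophages and B cells, where CD4 T cells read them. Their alpha and beta chains assemble around the invariant chain, cathepsin S trims that chain to a short remnant in the groove, and the DM heterodimer exchanges the remnant for antigenic peptide while the DO heterodimer restrains DM. Transcription of nearly all of these genes depends on the coactivator CIITA, which docks on factors bound to paired elements upstream of the genes, the X box and the Y box. In skin the pathway is known for Langerhans cells of the epidermis and for dendritic cells and macrophages of the dermis.

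The upstream sequences of 5 members are shown because the X and Y boxes are what the class II genes share that the choice by name did not use. Of the 10 genes, 7 had an entry in the RefSeq promoter table (build GRCm38.p6). H2-Ab1, Cd74 and Ciita had none. Letters in capitals mark an X box core (CNNGNAAC) followed by a Y box core (GATTGG) in the 4 H2 genes, and the interferon-stimulated response element letters (ISRE: GAAA, 2 free bases, GAAA) in Ctss. Each line gives the 150 bases before the annotated start, 5′ to 3′ on the gene's strand.
H2-Aa, chr17:34287824-34287973, minus strand: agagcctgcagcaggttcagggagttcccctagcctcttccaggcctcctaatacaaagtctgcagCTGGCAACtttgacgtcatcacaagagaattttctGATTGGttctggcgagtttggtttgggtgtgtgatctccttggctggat
H2-Eb1, chr17:34305717-34305866, plus strand: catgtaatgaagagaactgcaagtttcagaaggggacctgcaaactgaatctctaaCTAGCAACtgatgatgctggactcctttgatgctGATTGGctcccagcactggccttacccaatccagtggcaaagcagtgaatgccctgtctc
H2-DMb1, chr17:34153041-34153190, plus strand: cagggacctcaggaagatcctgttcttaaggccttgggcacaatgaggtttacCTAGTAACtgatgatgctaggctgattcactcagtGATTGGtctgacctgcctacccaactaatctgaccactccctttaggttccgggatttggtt
H2-Oa, chr17:34092229-34092378, plus strand: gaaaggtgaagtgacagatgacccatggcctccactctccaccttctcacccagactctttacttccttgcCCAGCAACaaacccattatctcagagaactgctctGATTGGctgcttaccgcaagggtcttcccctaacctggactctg
Ctss, chr3:95526636-95526785, plus strand: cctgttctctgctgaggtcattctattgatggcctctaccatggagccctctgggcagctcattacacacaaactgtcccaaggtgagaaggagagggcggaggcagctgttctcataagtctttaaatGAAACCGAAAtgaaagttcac

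In the 4 H2 genes the 2 cores were separated by 26 bases (H2-Eb1) or 27 bases (H2-Aa, H2-DMb1 and H2-Oa). The X box core began 84 bases before the start in H2-Aa, 94 in H2-Eb1, 97 in H2-DMb1 and 79 in H2-Oa. The ordered pair, with a spacer of 15 to 40 bases and read on both strands of the 250 bases before the start, occurred in 4 of the 8 promoter entries of the members and in 0.304% of all 32851 entries. Alone, the short cores were common: 33.3% of all entries held the X box core and 14.6% the Y box core. Of the entries of H2-DMa, the upstream one held the X box core and the other the Y box core, so neither held the ordered pair. The ISRE letters stood in 2.98% of all entries and, among members, in that of Ctss, where they began 21 bases before the start. The interferon gamma-activated site letters (GAS, TTCNNNGAA), found in 7.02% of all entries, were in no member entry. The letters and the spacer were set after these sequences had been seen, and a match describes letters, not a bound site.

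**Figure D1:**
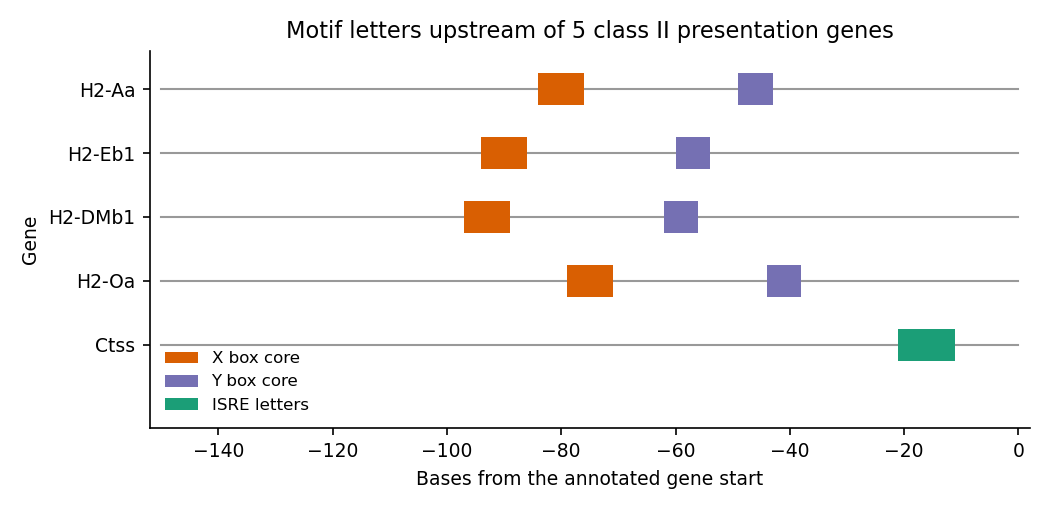
Positions of the searched letters in the 150 bases before the annotated start of 5 genes, with the start at 0 on the x axis (bases). Orange bars are the X box core, purple bars the Y box core and the green bar the ISRE letters, and the X and Y cores lie 26 or 27 bases apart in all 4 H2 genes drawn.

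The array interrogates the members with 60-base probes, 1 spot each. A few of them are shown, for the chain that differed most between the arrays, for a chain measured by several probes, and for the member that went the other way. They are in lower case throughout, with positions on mm9 as the array files give them.
H2-Aa, chr17:34421285-34421344, minus strand: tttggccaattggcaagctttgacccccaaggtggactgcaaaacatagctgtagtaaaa
H2-Ab1, chr17:34404357-34404416, plus strand: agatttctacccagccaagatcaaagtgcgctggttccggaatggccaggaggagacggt
Ifi30, chr8:73287747-73288473, minus strand: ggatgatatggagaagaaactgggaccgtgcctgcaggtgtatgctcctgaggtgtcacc
The H2-Aa probe begins at base 227 of its transcript, the H2-Ab1 probe at base 528 and the Ifi30 probe at base 478. The Ifi30 probe covers 727 bases of the genome with 60 bases of sequence and the H2-DMa probe 564 bases, so both cross a gap in the genomic alignment, as a probe over a splice junction does. No exon or untranslated region annotation of mm9 was used here.

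Of the 10 genes, 9 read higher on the KO-labelled array and 1, Ifi30, read lower. Of all genes with a value on each array, 45.1% read higher. A difference is the log2 signal relative to the array's 75th percentile over non-control probes, KO-labelled minus WT-labelled. The members ranged from −0.33 to 1.27 with a median of 0.98 (1.97-fold), and 5 of 10 were higher by 2-fold or more (against 4.82% of the 19872 genes with a value on each array) and 0 lower by as much (against 5.04%). The median of all those genes was −0.06. Of the 17 member probes, 15 cleared the background on each array and 14 of those read higher on the KO-labelled array. The 2 others, of Ciita and H2-DMb1, were not well above background on either array. All 10 genes had at least 1 measured probe, so no member was lost to the filter on dim probes. Only technical spread could be gauged. The SD of a difference was 0.12 for a single spot (291 probes with replicate spots) and 0.38 between different probes of a gene (6731 genes). Neither measures the spread between tumours.

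**Figure D2:**
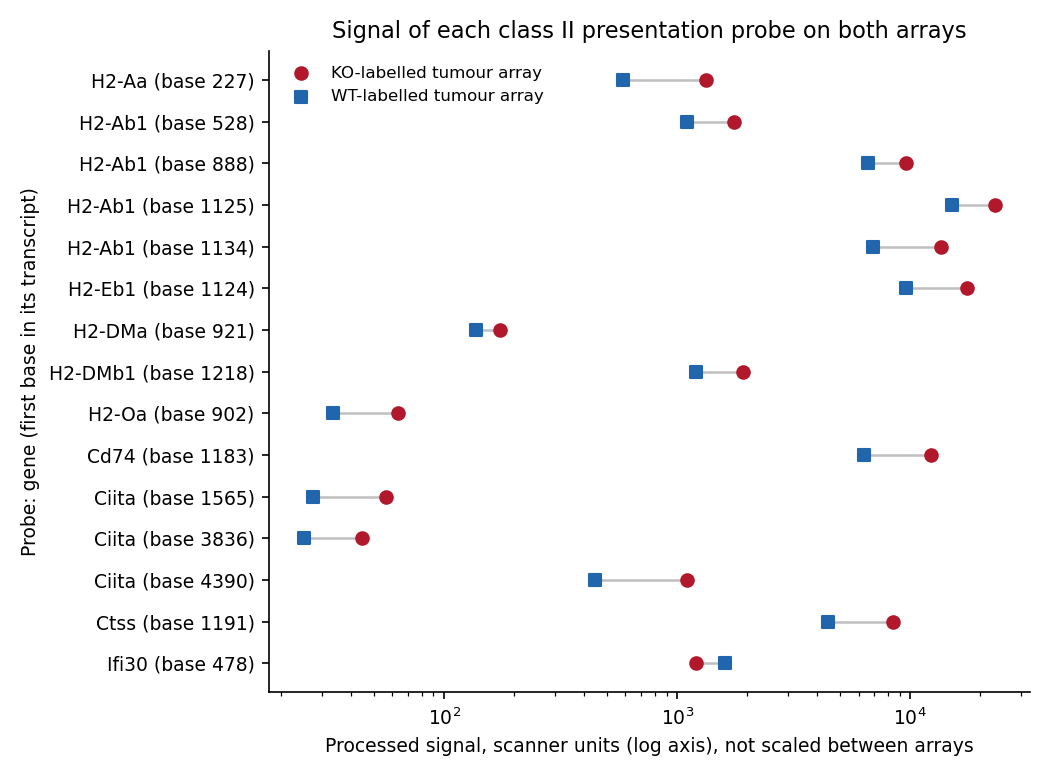
Processed signal of each measured class II presentation probe (x axis, scanner units on a log axis, not scaled between arrays) on the KO-labelled array (red circles) and the WT-labelled array (blue squares), with 1 spot per probe and array. The red circle lies to the right of the blue square for 14 of 15 probes, and to the left for Ifi30.

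Of the chains of the surface heterodimers, H2-Aa had the greatest difference of any member, while H2-Eb1 and H2-Ab1 ranked below Ciita, Cd74, Ctss and H2-Oa. H2-Aa, the alpha chain of I-A, read 1327 signal units on the KO-labelled array and 585 on the WT-labelled array, a difference of 1.27 (2.40-fold higher). A greater difference was found for 2.62% of all measured genes. H2-Eb1, the beta chain of I-E, read 17483 units on the KO-labelled array against 9611 on the WT-labelled array (chr17:34453075-34453134, mm9), a difference of 0.95 (1.93-fold higher), just short of 2-fold.

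H2-Ab1, the beta chain of I-A, was measured by 4 probes that all read higher on the KO-labelled array. Its difference was 0.79 ± 0.19 (SD, n = 4 probes), or 1.73-fold. The probe at base 528 read 1759 units on the KO-labelled and 1097 on the WT-labelled array. The probe at base 888 read 9566 units on the KO-labelled and 6572 on the WT-labelled array. The remaining pair lies side by side at the transcript's end, sharing 51 bases that differ at 1 position. The member of that pair at base 1125 read 23145 units on the KO-labelled and 15034 on the WT-labelled array, a difference of 0.71. Its neighbour at base 1134 read 13589 units on the KO-labelled and 6945 on the WT-labelled array, a difference of 1.05. These nearly identical probes therefore gave values 1.63-fold and 2.08-fold higher. The spot SD of a single difference was 0.12, and the scanner's own error for each of these differences was 0.20. How the sequence difference bears on the gap between them was not tested.

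Among the genes that load peptide, both DM chains were higher by less than 2-fold. H2-DMb1, the beta chain of DM, read 1921 units on the KO-labelled array and 1206 on the WT-labelled array, a difference of 0.76 (1.69-fold higher). Its partner H2-DMa, the alpha chain of DM, read 174 units on the KO-labelled array and 137 on the WT-labelled array, and its difference of 0.43 (1.34-fold higher) was the smallest positive one among the members. The other H2-DMb1 probe, at base 92 of an Ensembl transcript, gave 4.01 units on the KO-labelled and 4.08 on the WT-labelled array and carries no level. H2-Oa, the alpha chain of DO, read 63.5 units on the KO-labelled array and 33.5 on the WT-labelled array, a difference of 1.01 (2.01-fold higher). Both H2-Oa signals were weak, and with another background correction (normexp) the difference was 0.48.

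Cd74, the invariant chain that escorts new class II dimers to the endosome, read 12253 units on the KO-labelled array and 6351 on the WT-labelled array. Its difference of 1.03 (2.05-fold higher) was close to that of H2-Eb1. The Cd74 probe is placed at chromosome 18, 60972075 to 60972132 (mm9), away from the chromosome 17 cluster that holds 6 of the members.

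Ciita, the coactivator on which class II transcription depends, was 2.21-fold higher, a difference of 1.14 ± 0.24 (SD, n = 3 probes). Its brightest probe, at base 4390, read 1101 units on the KO-labelled array and 444 on the WT-labelled array (difference 1.39). The probe at base 1565 read 56.5 units on the KO-labelled and 27.5 on the WT-labelled array (1.12). The probe at base 3836 read 44.3 units on the KO-labelled and 25.02 on the WT-labelled array (0.91). All 3 agreed in sign, and the dimmer ones gave the smaller differences. Under normexp correction those of the dimmer probes were 0.45 and 0.43 while that of the brightest was 1.25. The last Ciita probe, designed on a cDNA clone from dendritic cells of NOD mice, read 4.55 units on the KO-labelled and 4.49 on the WT-labelled array, not well above background on either.

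The 2 endosomal enzymes parted. Ctss, the cathepsin that degrades the invariant chain, read 8407 units on the KO-labelled array and 4423 on the WT-labelled array, a difference of 1.01 (2.02-fold higher). Ifi30, a thiol reductase that opens disulphide bonds of endocytosed proteins and is induced by interferon gamma, read 1199 units on the KO-labelled array and 1597 on the WT-labelled array. Its difference was −0.33 (1.26-fold lower), within the SD of 0.38 between probes of a gene, and 28.2% of all measured genes lay lower still.

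Several members sat at the 2-fold line, so their count there says less than their values. H2-Oa, Ctss, Cd74 and H2-Eb1 lay between 0.95 and 1.03, within 0.1 of a difference of 1. With a line at 1.5-fold, 8 of 10 members were higher and 0 lower, against 12.9% of all measured genes higher and 13.8% lower. The count of members at least 2-fold higher was 2 under normexp correction and 2 with no scaling between the arrays. On a scale set by 8 spike-in control probes it was 0. The shares of all measured genes past 2-fold were 1.85% higher and 2.91% lower under normexp, 4.01% higher and 5.98% lower with no scaling, and 1.36% higher and 18.9% lower on the spike-in scale, with 0 members lower in each. On that last scale every difference read 0.53 lower, the median over all measured genes was −0.58, and H2-DMa turned to −0.10. That scale shifts every gene by the same amount, so gaps to the median of all measured genes cannot change. They were 1.04 for the member median and 0.48 for H2-DMa.

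**Figure D3:**
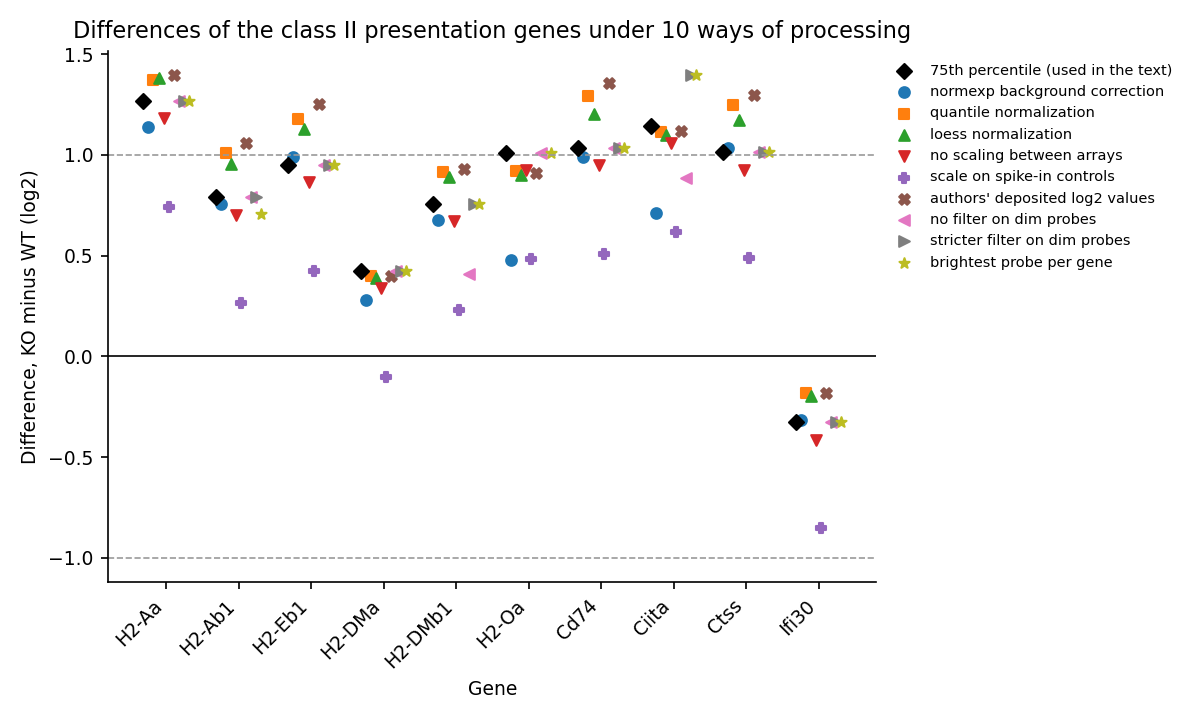
Difference of each class II presentation gene, KO-labelled minus WT-labelled (y axis, log2), under the 75th percentile scale used in the text (black diamonds) and 9 alternatives. Dashed lines mark 2-fold, 9 genes lie above 0 on the 75th percentile scale, the spike-in scale gives the lowest point of every gene except H2-Oa, and Ifi30 lies below 0 throughout.

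The 6 members on chromosome 17 lie within 221102 bases, from the H2-Oa probe at 34232033 to the H2-Eb1 probe ending at 34453134 (mm9). Between them the array has probes for 10 other named genes and 2 known by a probe identifier only, and 6 of the named ones were measured on both arrays. Gm15821, a predicted gene, was above background on the KO-labelled array alone, which puts it at least 2.25-fold higher there. None of the 6 measured genes was 2-fold apart in either direction, 5 lay above 0 (though none on the spike-in scale), and their median was 0.25. H2-Ob, the beta chain of DO, differed by 0.41 (−0.12 on the spike-in scale and 0.14 under normexp correction). Both H2-Ob signals were weak, close to the lowest level above background. The class I genes of the interval differed by 0.14 (Psmb9, an immunoproteasome subunit), 0.19 (Tap1, a peptide transporter subunit), 0.34 (Psmb8, an immunoproteasome subunit) and 0.31 (Tap2, the other transporter subunit), and Brd2, a bromodomain protein, by −0.46. Over the 1027 measured genes of chromosome 17 the median was −0.06 and 4.58% were at least 2-fold higher.

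**Figure D4:**
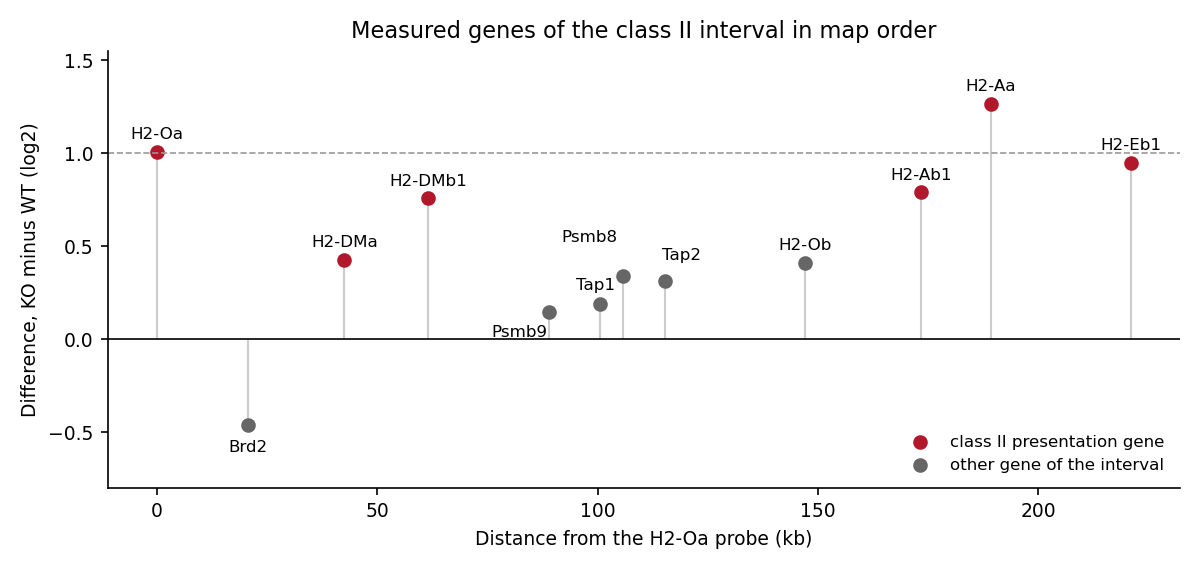
Difference of each measured gene of the class II interval, KO-labelled minus WT-labelled (y axis, log2), by distance from the H2-Oa probe (x axis, kb). Red points are the 6 class II presentation genes, from 0.43 to 1.27, and grey points the 6 other genes, from −0.46 to 0.41, with a dashed line at 2-fold.

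Other genes of the pathway were nearer to the background. Their list medians, above or below 0 on the 75th percentile scale, were all below 0 on the spike-in scale, from −0.33 for the interferon gamma genes to −0.65 for the class I genes, beside −0.58 for all measured genes. Beside H2-Ob, the class II chain gene H2-Eb2 differed by −0.09, and H2-Ea-ps, the pseudogene of the I-E alpha chain, and H2-DMb2 were not well above background on either array. Of 11 genes that act on class II transcription, 0 were at least 2-fold higher and 1 lower (median 0.17, or −0.09 with the brightest probe per gene). Rfxap, a subunit of the complex that binds the X box, was 2.09-fold lower from 1 probe, a difference of −1.07 that was −0.93 under normexp correction. Of 16 endosomal proteases and inhibitors, 2 were at least 2-fold higher and 0 lower (median −0.02). Those were the cathepsin genes Ctso (2.55-fold) and Ctsz (2.28-fold), and the Ctso difference of 1.35 was 0.64 under normexp correction. The median of that list was 0.13 under quantile normalization, so its sign depends on the scale.

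Genes of class II turnover and sorting, of costimulation and of the interferon gamma response held no member 2-fold apart in either direction. The 14 measured genes of turnover, sorting and coreceptors had a median of 0.17, with Lag3, an inhibitory receptor that binds class II, at 0.62 and Cd53, a tetraspanin, at 0.60. The 6 costimulation genes had a median of 0.06, with Cd40, a receptor for T cell help, at 0.62 and Cd86, a ligand of CD28, at 0.31. The 18 interferon gamma genes had a median of 0.20, with the GTPase genes Igtp at 0.80 and Gbp3 at 0.66. Ifng itself was not well above background on either array. The 16 class I presentation genes had a median of −0.13 and 0 were 2-fold apart, with the class I heavy chain H2-D1 at −0.72 and the chaperone Canx at −0.59.

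Markers of the cells that can carry class II differed between the arrays too. All 6 pan-leukocyte markers read higher on the KO-labelled array, by 0.35 to 0.82 with a median of 0.77 (0.24 on the spike-in scale, where Itgb2 turned to −0.17), and 0 were 2-fold apart. Their summed signal, in units of each array's 75th percentile, was 27.4 on the KO-labelled array and 16.1 on the WT-labelled array. The class II median exceeded the pan-leukocyte median by 0.21, a gap of 0.06 under normexp correction and of 0.41 without a filter on dim probes. In a whole tumour, more cells that express class II and more class II RNA per cell cannot be told apart.

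Among 16 measured markers of macrophages and monocytes, 8 passed 2-fold upward and 1 downward, with a median of 1.02 beside the class II median of 0.98 (0.50 beside 0.45 on the spike-in scale, and 0.71 beside 0.92 without a filter on dim probes). Under normexp correction 4 passed 2-fold upward and 0 downward. The highest were Cx3cr1, the fractalkine receptor (2.78), Fcgr1, an Fc receptor (1.71), Mertk, an efferocytosis receptor (1.35), Cd14, a lipopolysaccharide coreceptor (1.33), C1qb, a complement subunit (1.28), and Fcgr3, another Fc receptor (1.25). Under normexp those of Fcgr1 (0.89), Mertk (0.64) and Fcgr3 (0.99) fell short of 2-fold. Mrc1, the mannose receptor, was 2.10-fold lower (−0.75 under normexp), and Cd163, a scavenger receptor, was above background on the WT-labelled array alone, which puts it at least 1.66-fold lower on the KO-labelled array. The summed signal of this list was 93.2 on the KO-labelled and 103 on the WT-labelled array, since the bright Ly6c2 probe differed by −0.81, so sum and median point opposite ways (Mrc1 and Ly6c2 were singled out after their values were seen). The part of macrophage number in the class II differences was not tested.

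The medians of the dendritic and Langerhans cell markers were below 0 on the spike-in scale (−0.36 and −0.51). Of 12 conventional dendritic cell markers 7 were measured, 6 of them above 0, with a median of 0.17 (0.49 without a filter on dim probes and 0.53 with the brightest probe per gene). Itgax, the CD11c integrin (2.31-fold), and Batf3, a transcription factor of cross-presenting cells (2.15-fold), were at least 2-fold higher. The Batf3 difference was 0.58 under normexp correction. Zbtb46, Xcr1, Clec9a and Cd209a were not well above background on either array, and Irf4 was above it on the WT-labelled array alone, which puts it at least 1.58-fold lower on the KO-labelled array. The summed signal of the measured ones was 12.1 on the KO-labelled and 9.98 on the WT-labelled array. Among 7 markers of Langerhans cells, 0 passed 2-fold upward and 1 downward (median 0.01). That gene was Cd207, the langerin of Langerhans cells, 3.15-fold lower on the KO-labelled array (a difference of −1.66, or −0.99 under normexp), opposite in sign to the class II chains, and the summed signal of the list was 95.3 on the KO-labelled and 101 on the WT-labelled array.

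The sign of the B and T cell lists depended on the processing, with medians of 0.06 and 0.04 under normexp correction. Of 9 B cell markers 3 were measured (median −0.20). Cd79a, Blk and Fcer2a were not well above background on either array, Ms4a1 was above it on the KO-labelled array alone (at least 1.90-fold higher), and Pax5 and Cr2 on the WT-labelled array alone (at least 1.76-fold and 1.22-fold lower on the KO-labelled array). Their summed signal was 0.696 on the KO-labelled and 0.710 on the WT-labelled array. Of 8 T cell markers 7 were measured, and Cd8a was above background on the KO-labelled array alone (at least 1.285-fold higher). Of the 7 measured, 0 were at least 2-fold higher and 1 lower (median −0.02). The lower one was Cd2, an adhesion receptor, 2.44-fold lower (a difference of −1.29, or −0.92 under normexp). Their summed signal was 6.19 on the KO-labelled and 6.12 on the WT-labelled array.

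**Figure D5:**
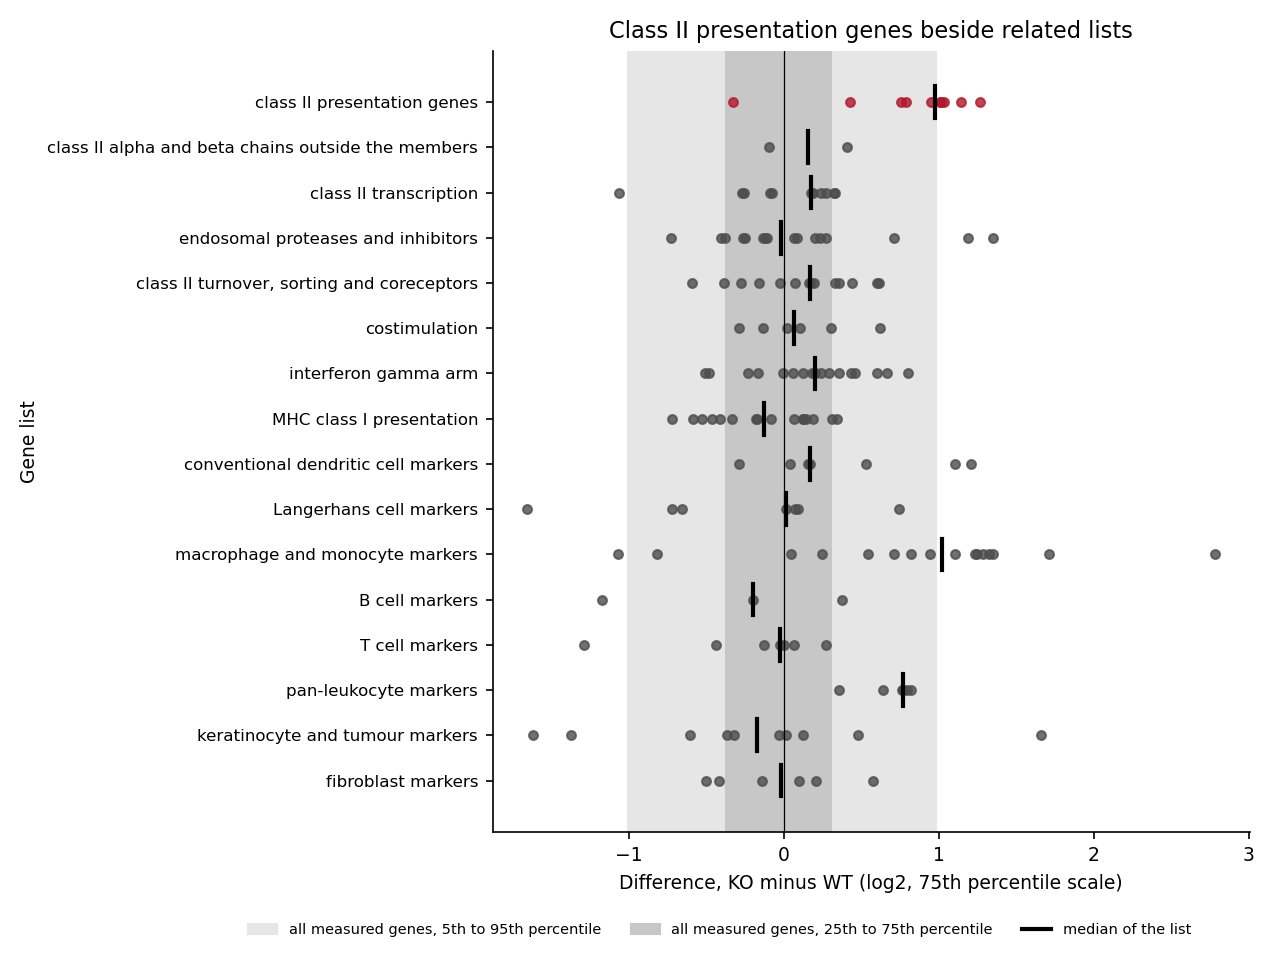
Difference of each measured gene, KO-labelled minus WT-labelled (x axis, log2), for the class II presentation genes (red, top) and 15 related lists (grey), with a black bar at each list's median. Grey bands span the 5th to 95th and, darker, the 25th to 75th percentile (−0.37 to 0.30) of all measured genes, and the class II, macrophage and pan-leukocyte medians are the ones beyond the inner band.

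The tumour itself was checked against markers of its tissue. All 10 keratinocyte and tumour markers and all 6 fibroblast markers were measured on both arrays, with medians of −0.18 and −0.02 (0.04 and 0.12 after loess, so neither sign is stable). Among the keratinocyte markers Krt5, a basal keratin, was 3.16-fold higher, and the suprabasal keratin genes Krt1 and Krt10 were 3.06-fold and 2.58-fold lower on the KO-labelled array. Krt14, another basal keratin, named after its value was seen, differed by 0.01. Of the 10, 1 was at least 2-fold higher and 2 lower, against 4.82% and 5.04% of all measured genes.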

How the data were processed

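Per the submitters' processing notes and the file headers, spot intensities were read by the authors in Agilent Feature Extraction 10.7.1.1, with spatial and multiplicative detrending. Both arrays lay on 1 slide in 1 scan, per the file headers. The authors also deposited log2 values, which tracked the log2 scanner signal (r = 0.9997 KO-labelled, 0.9999 WT-labelled) and shared a median of 4.96. The sources used here do not give their normalization.

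Here, spots marked as outliers (105 on the KO-labelled, 102 on the WT-labelled array) were left out, spots of a probe were averaged, and log2 signals were set relative to each array's 75th percentile over non-control probes. A probe counts as measured if over 50% of its spots passed the scanner's background call on each array. A gene's value is the mean over its measured probes. Where any probe of a gene was above background on 1 array and none on the other, a bound was set on the 75th percentile scale only. It compares the bright level with the dim probe's level or the dim array's lowest level above background (−4.23 KO-labelled, −4.29 WT-labelled), whichever is higher. The largest bound over the bright probes of a gene is given. Symbols came through RefSeq accessions (31459 probes kept, 1535 updated, 23611 unmatched), and 14 of 17 member probes matched. No gene's symbol among the members was altered. Spreads rest on 1 array per group, so the number of arrays limits the precision.

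The named genes were all members, P2ry6, and of each related list those at least 2-fold apart (up to 6 by size) or otherwise the greatest by size. In the pan-leukocyte and fibroblast lists this rule was not followed. No fibroblast gene was named, and the pan-leukocyte gene named, Itgb2, had the smallest difference of its list. A result that the rule would name is not reported here. Members and lists were chosen with earlier results of these data known. Alternatives used limma 3.58.1 in R 4.3.3 (normexp with an offset of 50, quantile, loess). The code behind the calls was run on simulated data, which is no test of the difference between the genotypes.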

Additional observations from a re-analysis of the deposited data

How the results depend on the processing

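No paired analysis was possible because each group has 1 array. Ifi30 lay below 0 and the other members above 0 under each of the 9 alternatives, except H2-DMa at −0.10 on the spike-in scale and H2-Oa, which the stricter filter on dim probes left without a value. The count of members at least 2-fold higher was 5 in the text, beside 4.82% of all measured genes. It was 2 under normexp correction (beside 1.85%), 2 with no scaling between arrays (4.01%) and 0 on the spike-in scale (1.36%). At a 1.5-fold line it was 8 (12.9%). The cause was not tested. The median of the members, 0.98, was 0.45 on the spike-in scale, where the median of all measured genes moved by −0.53, and 0.73 to 1.09 under the other alternatives. Without a filter on dim probes the median of all genes was 0.05, and the member median exceeded it by 0.87. Weak signals limit H2-Oa and 2 of the 3 measured Ciita probes, and 8 members rest on 1 measured probe.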
